A study of Homo sapiens with 4 samples.

Results

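The genes described here are 10 regulators of cell cycle entry and progression: the cyclins CCND1, CCNE1, CCNE2, CCNA2 and CCNB1, the kinases CDK4, CDK2 and CDK1, the transcription factor E2F1 and the phosphatase CDC25A. They were chosen by name, and their BRPF3 peaks were taken as those within 5 kb of an hg19 start site. The start sites were used as given, in steps of 10 bases. The 10 genes had 15 such peaks of 13431 in hydroxyurea (HU) cells, 14 of 11532 in mimosine cells and 13 of 13160 in asynchronous cells. Merging overlapping peaks across conditions put these peaks in 16 of 14039 regions, 10 of which lay over a start site.

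The peaks come from chromatin immunoprecipitation followed by sequencing in RKO, an established human colon carcinoma line, with a homemade rabbit antibody against BRPF3. A description label of these libraries names other BRPF family members, and the titles and antibody label were followed. The HU library was made from cells held in 0.5 mM mimosine for 22 h, let go for 3 h, and given 3 mM HU for 1 h 30 min, the mimosine library from cells at the end of the 22 h in 0.5 mM mimosine, and the asynchronous library from untreated, growing cells. A rabbit IgG library from HU cells is named as the control of all 3 peak lists, so the mimosine and asynchronous lists have no control of their own condition. Each condition had 1 library, and no difference below has a replicate or a p-value. Read numbers were not analysed here, so a narrower or absent peak cannot be told apart from a library with fewer reads or weaker enrichment. Peak positions are in hg19 and counted from 1.

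Cyclins are the regulatory partners that switch cyclin-dependent kinases on. Cyclin D1 with CDK4 starts the phosphorylation of the retinoblastoma protein in G1, which frees E2F factors to activate genes of the G1/S transition, cyclin E and CDC25A among them. Cyclin E with CDK2 drives entry into S phase, cyclin A acts in S and G2, and cyclin B with CDK1 drives mitosis. BRPF3 is a scaffold subunit of histone acetyltransferase complexes of the MYST family. Mimosine stops cells around the onset of DNA replication, and HU starves replication forks of deoxynucleotides.

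BRPF3 peaks lay over the start sites of the 10 genes in every condition. The start site was inside a peak for 10 of 10 genes in HU cells, 10 of 10 in mimosine cells and 10 of 10 in asynchronous cells. For scale, 5.49% of 10 kb windows along the chromosomes touched an HU peak, 4.07% a mimosine peak and 5.26% an asynchronous peak. A window needs only to touch a peak, which is a looser measure than a start site inside one. Those windows include sequence far from any gene, and start sites as a class were not counted. All 10 start-site regions held peaks of all 3 lists, as did 71.5% of the regions of the series. The lowest score over any of the 10 start sites was 310 in HU cells, 204 in mimosine cells and 486 in asynchronous cells, each time at E2F1. The score is the authors' value for a peak, 10 times the negative base-10 logarithm of the caller's p-value, with a minimum of 50 in the lists.

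**Figure D1:**
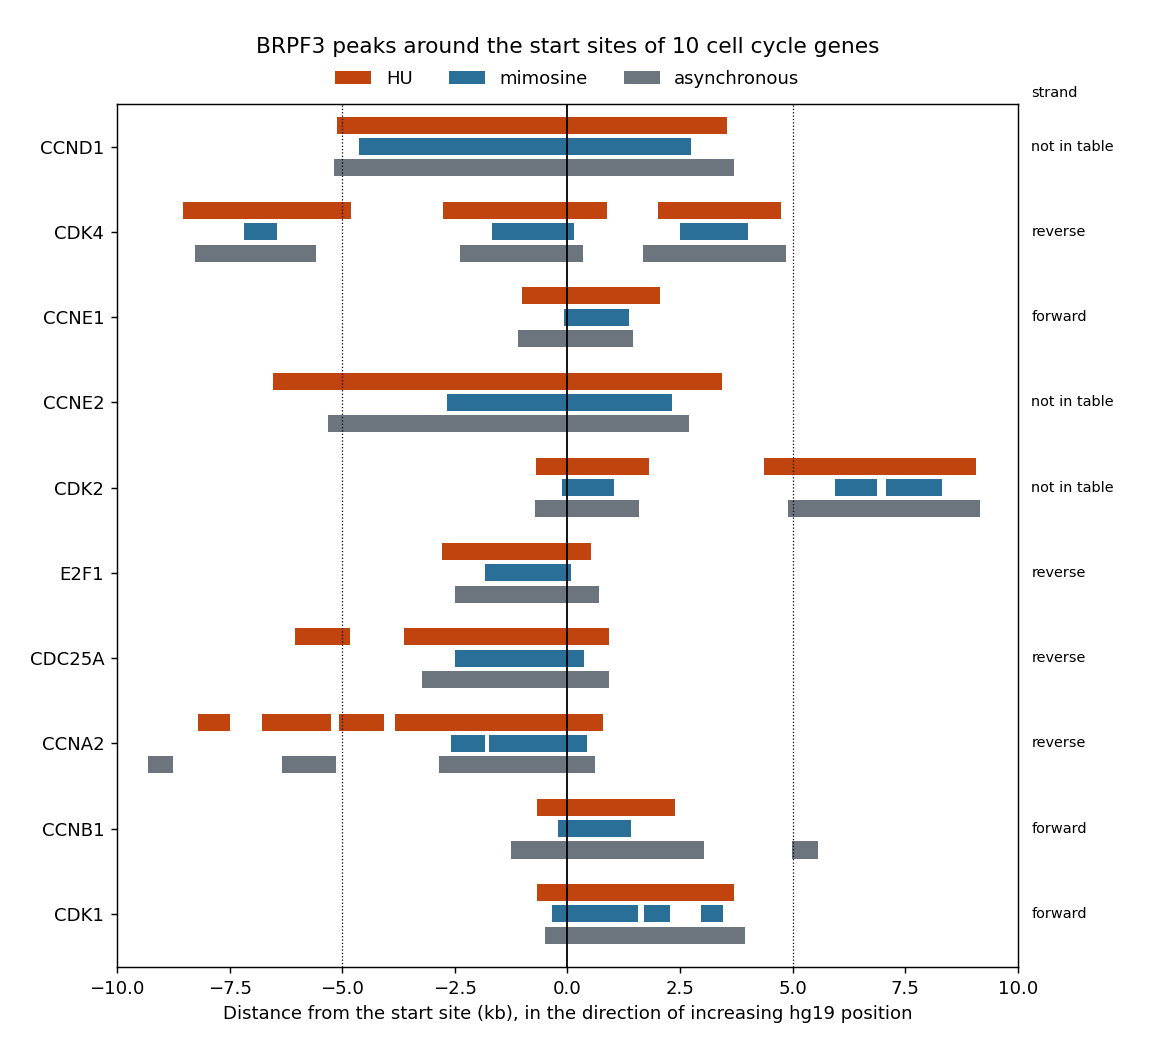
BRPF3 peaks within 10 kb of the start sites of the 10 genes, drawn to scale by distance from the start site in kb, with HU above mimosine above asynchronous for each gene. Bars are peaks, dotted lines mark 5 kb on either side, and the strand is given where the promoter table lists the gene; every start site lies inside a bar of each color, and the mimosine bar over it is the shortest of each trio.

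The peaks over the start sites were mostly ordinary to high in rank within their lists. Ranks are given as the percentile of the score within its own list, where 50 is the middle. The 10 genes had a median percentile of 69.4 in HU cells (range 35.4 to 96.1), 60.1 in mimosine cells (40.7 to 94.5) and 71.5 in asynchronous cells (45.8 to 96.0). Regions called in all 3 lists had medians of 62.5, 55.5 and 61.7 in the same order of conditions, with interquartile ranges of 43.6 to 81.3, 32.1 to 77.9 and 42.0 to 80.9. The medians of the 10 genes thus lay inside the middle 50% of such regions. Start-site peaks above percentile 50 numbered 9 of 10 in HU cells, 8 of 10 in mimosine cells and 9 of 10 in asynchronous cells. The share of regions called in all 3 lists above percentile 50 was not counted. Their medians were above 50 in each condition, so most of them pass that limit too.

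CDC25A and the E-type cyclin CCNE2 carried the highest ranks in HU and mimosine cells, and CDC25A and CCND1 in asynchronous cells. CDC25A, which removes inhibitory phosphates from CDK2 and CDK1, had percentiles of 90.8 in HU cells, 94.5 in mimosine cells and 96.0 in asynchronous cells. Its scores were 2633, 2292 and 3100. CCNE2 had percentiles of 96.1, 94.2 and 88.1, with scores of 3100, 2239 and 2210. Scores of 3100 or more were reached by 7.25% of HU, 2.91% of mimosine and 7.45% of asynchronous peaks. The value 3100 is shared by many peaks, so the order among them is unresolved. Among the 10 genes it was reached by 1 HU peak (CCNE2), 0 mimosine peaks and 2 asynchronous peaks (CCND1 and CDC25A).

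E2F1 had the lowest rank of the 10 genes in each list. Its percentile was 35.4 in HU cells, 40.7 in mimosine cells and 45.8 in asynchronous cells. The HU value lay below 43.6, the lower quartile of regions called in all 3 lists. The mimosine and asynchronous values lay inside the interquartile ranges of such regions. CDK2 and CDK4, the kinases of the G1/S and G1 steps, came next from the bottom in HU and mimosine cells. CDK2 had percentiles of 54.3, 49.0 and 54.2, and CDK4 had 55.1, 50.8 and 61.0, in HU, mimosine and asynchronous cells. Neighbours in this order differ by a few points, and with 1 library per condition no spread is available to separate them.

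**Figure D2:**
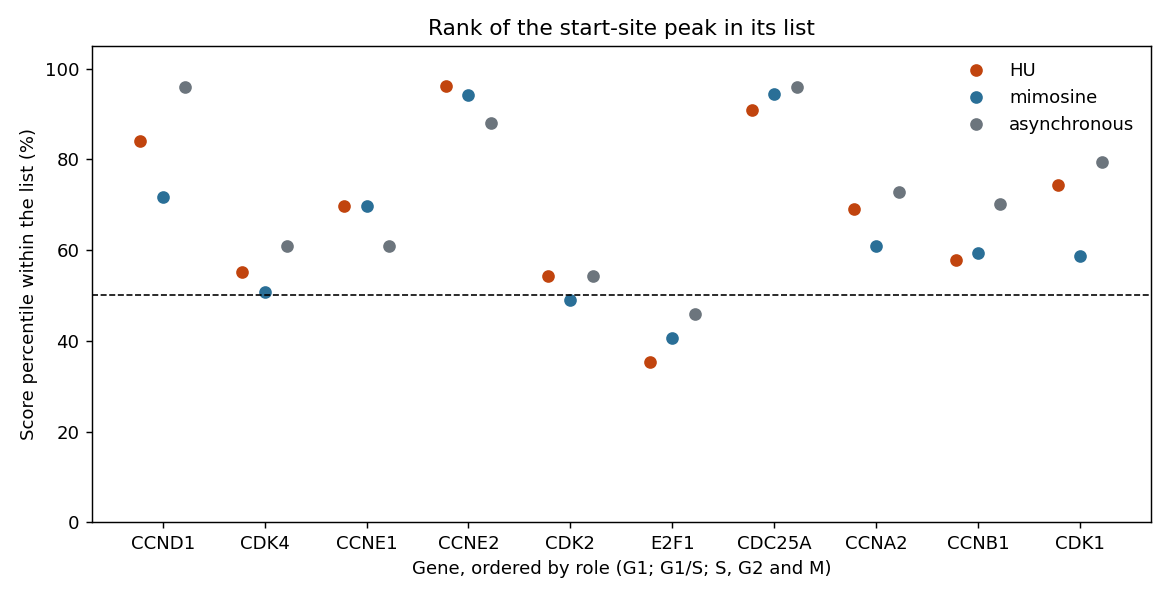
Score percentile of the start-site peak within its list (y axis, percent), for each gene (x axis, ordered by role) and condition (color). Each point is 1 peak of 1 library and the dashed line is the middle of a list; E2F1 lies lowest in all 3 conditions, at 35.4, 40.7 and 45.8, while CCND1 spans 71.8 to 96.0.

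The G1 pair, CCND1 and CDK4, differed in width and setting. CCND1, the cyclin that couples growth signals to the cycle, lay in a peak of 8656 bp in HU cells (chr11:69450760-69459415), 7369 bp in mimosine cells (chr11:69451246-69458614) and 8873 bp in asynchronous cells (chr11:69450695-69459567). The mimosine peak had 0.830 of the asynchronous width, the highest ratio of the 10 genes and above the upper quartile of 0.802 over comparable regions. The CCND1 score was 1788 in HU cells, 611 in mimosine cells and 3100 in asynchronous cells, which are percentiles of 84.1, 71.8 and 96.0. The mimosine percentile was lower by 24.2 points than the asynchronous one (difference -24.2), the widest gap of the 10 genes. Mimosine percentiles at least 20 points below the asynchronous ones were found at 14.0% of regions in all 3 lists and at 2 of the 10 genes, CCND1 and CDK1, a limit chosen after the values were seen.

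CDK4, the partner of cyclin D1, lay in a narrower peak within a cluster. Its start-site peak measured 3642 bp in HU cells (chr12:58143458-58147099), 1811 bp in mimosine cells (chr12:58144562-58146372) and 2748 bp in asynchronous cells (chr12:58143836-58146583). A separate peak stood on the other side of the start, with its near edge 2002 bp away in HU cells, 2499 bp in mimosine cells and 1685 bp in asynchronous cells. That second peak scored higher than the start-site peak in each list, at 1155 against 640 in HU cells, 447 against 284 in mimosine cells and 1496 against 788 in asynchronous cells. In the GRCh38 gene table the next protein-coding gene on the side of higher coordinates is MARCHF9, and TSPAN31 overlaps CDK4. A further HU peak, on the lower-coordinate side, had its near edge 4799 bp from the start, where the mimosine and asynchronous counterparts lay beyond 5 kb. Which of these genes a peak belongs to was not assigned.

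Among the G1/S genes, CCNE2 was broad and CCNE1 compact. CCNE1 and CCNE2 encode the paired E-type cyclins that activate CDK2. At CCNE2 the peak measured 9963 bp in HU cells, 4981 bp in mimosine cells and 8019 bp in asynchronous cells. CCNE1 had 3071 bp (chr19:30301893-30304963), 1455 bp (chr19:30302814-30304268) and 2553 bp (chr19:30301811-30304363). In the GRCh38 gene table INTS8 and NDUFAF6 overlap CCNE2, and the broad peak was not assigned to any of these genes. Both E-type cyclins ranked higher in mimosine than in asynchronous cells, by 8.96 points at CCNE1 and 6.18 points at CCNE2. They were the 2 of 10 genes with that direction, against 31.3% of regions in all 3 lists. In HU cells their percentiles were also above those of asynchronous cells, by 8.91 and 8.07 points.

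CDK2 had the narrowest peaks of the 10 genes. They measured 2507 bp in HU cells (chr12:56359854-56362360), 1165 bp in mimosine cells (chr12:56360429-56361593) and 2305 bp in asynchronous cells (chr12:56359841-56362145). A wider peak followed at higher coordinates, of 4710 bp in HU and 4259 bp in asynchronous cells, with near edges 4353 and 4905 bp from the start. In mimosine cells the same stretch held a pair of short peaks of 926 and 1244 bp, the nearer 5938 bp from the start and so outside 5 kb. RAB5B is the next protein-coding gene on that side in the GRCh38 gene table, and PMEL the next on the other.

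E2F1 and CDC25A had peaks of similar width in HU and asynchronous cells. E2F1, the activator of many S-phase genes, had 3311 bp in HU cells (chr20:32271432-32274742), 1907 bp in mimosine cells (chr20:32272374-32274280) and 3213 bp in asynchronous cells (chr20:32271703-32274915). CDC25A had 4532 bp (chr3:48226182-48230713), 2877 bp (chr3:48227301-48230177) and 4153 bp (chr3:48226570-48230722). At CDC25A a weak HU peak of score 51.7, close to the minimum, stood with its near edge 4835 bp from the start, and it had no counterpart in the mimosine or asynchronous list.

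Of the S, G2 and M genes, CDK1 and CCNA2 had start-site regions split into several mimosine peaks, and CCNB1 did not. CDK1, the kinase of mitosis, had 1 peak of 4376 bp in HU cells (chr10:62537414-62541789) and 1 of 4445 bp in asynchronous cells (chr10:62537591-62542035). In mimosine cells the same stretch held 3 peaks, of 1897, 577 and 485 bp, the first of which covered the start (chr10:62537768-62539664). The scores of these 3 peaks were 379, 98.8 and 72.3. The start-site peak of CDK1 had percentiles of 74.4 in HU cells, 58.7 in mimosine cells and 79.4 in asynchronous cells, a mimosine value 20.6 points below the asynchronous one (difference -20.6). CDK1 was also the most isolated of the 10 genes, with 161 kb to the nearest other region.

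At CCNA2, the cyclin of S phase and G2, the start-site peak measured 4617 bp in HU cells (chr4:122741258-122745874), 2196 bp in mimosine cells (chr4:122743339-122745534) and 3457 bp in asynchronous cells (chr4:122742241-122745697). A second mimosine peak of 760 bp and score 93.8 adjoined it inside the same region. Further peaks of low score lay on the lower-coordinate side: 3 in HU cells with scores of 80.1, 119 and 59.0, and 2 in asynchronous cells with scores of 70.9 and 57.5. Of these 5, the HU peak of score 80.1 came within 5 kb of the start, at 4062 bp, and the next was the asynchronous peak at 5128 bp. Because CCNA2 lies on the reverse strand, this side is downstream of its start. EXOSC9 overlaps CCNA2 in the GRCh38 gene table, and the peaks were not assigned to either gene.

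CCNB1, the mitotic partner of CDK1, was widest in asynchronous cells. Its peak measured 3073 bp in HU cells (chr5:68462153-68465225), 1613 bp in mimosine cells (chr5:68462635-68464247) and 4285 bp in asynchronous cells (chr5:68461595-68465879). The HU peak was thus 0.717 and the mimosine peak 0.376 of the asynchronous width, the lowest value of each ratio among the 10 genes. Its percentiles were 57.7, 59.3 and 70.2 in HU, mimosine and asynchronous cells. An asynchronous peak of 588 bp and score 57.6 stood 4979 bp from the start, just inside the 5 kb limit.

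**Figure D3:**
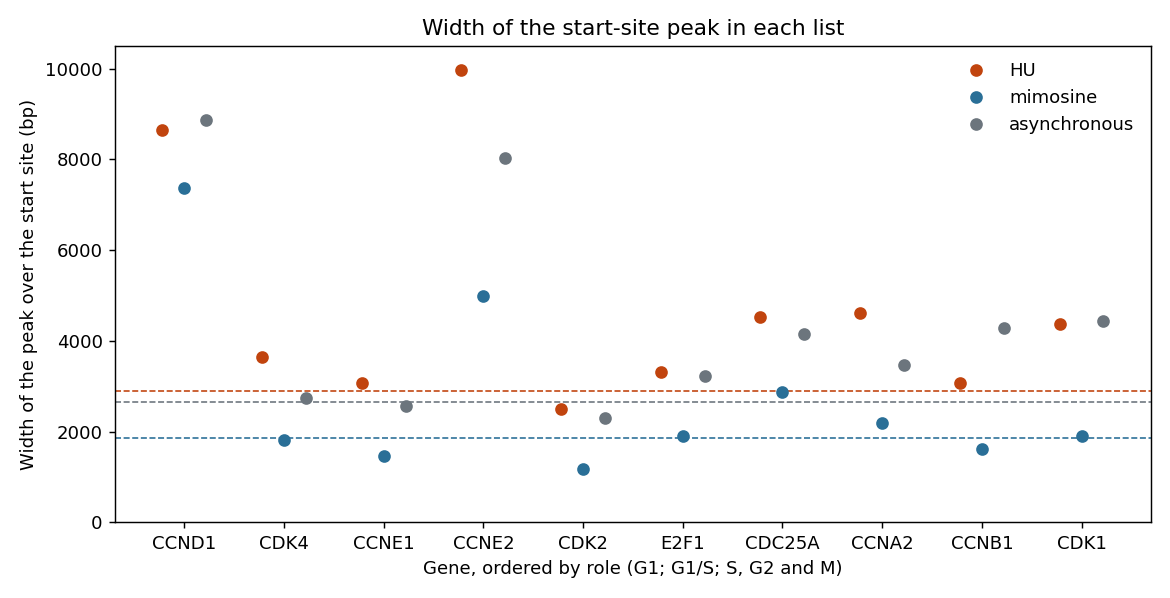
Width in bp of the peak over each start site (y axis, from 0) by gene (x axis) and condition (color), with dashed lines at the median width of all peaks of each list, 2898 bp in HU, 1855 bp in mimosine and 2644 bp in asynchronous cells. The mimosine point is the lowest for all 10 genes, and CCND1 and CCNE2 stand far above the rest in HU and asynchronous cells.

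Peaks were narrowest in mimosine cells at all 10 genes, which is the general pattern of the series. The mimosine peak was narrower than the HU peak at 10 of 10 genes and narrower than the asynchronous peak at 10 of 10 genes. Among regions with exactly 1 peak per list the shares were 99.9% and 98.2%, so the counts do not set these genes apart. The median width over the 10 genes was 4009 bp in HU cells, 1902 bp in mimosine cells and 3805 bp in asynchronous cells. These widths stood at median percentiles of 74.0, 51.6 and 77.0 within their lists.

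The HU to mimosine width ratio was near or above 2 at several of the genes. The HU peak was at least 2 times as wide as the mimosine peak at CCNE1 (2.11), CCNE2 (2.00), CDK2 (2.15) and CDK4 (2.01), which are 4 of the 8 genes with exactly 1 peak per list in their region. Over all such regions the share was 21.8%. CCNA2 and CDK1, whose mimosine peaks were split, had ratios of 2.10 and 2.31 for the peak over the start. The median HU to mimosine ratio of the 8 genes was 1.95, against a median of 1.59 and an upper quartile of 1.93 over 8653 regions. The limit of 2 was chosen after the values were seen. CCNE2 and CDK4 only just passed it, with HU and mimosine widths of 9963 and 4981 bp, and of 3642 and 1811 bp. When base pairs covered within 5 kb were used in place of peak width, 2 of the 8 genes passed it. The share of all regions passing by that measure was not counted.

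**Figure D4:**
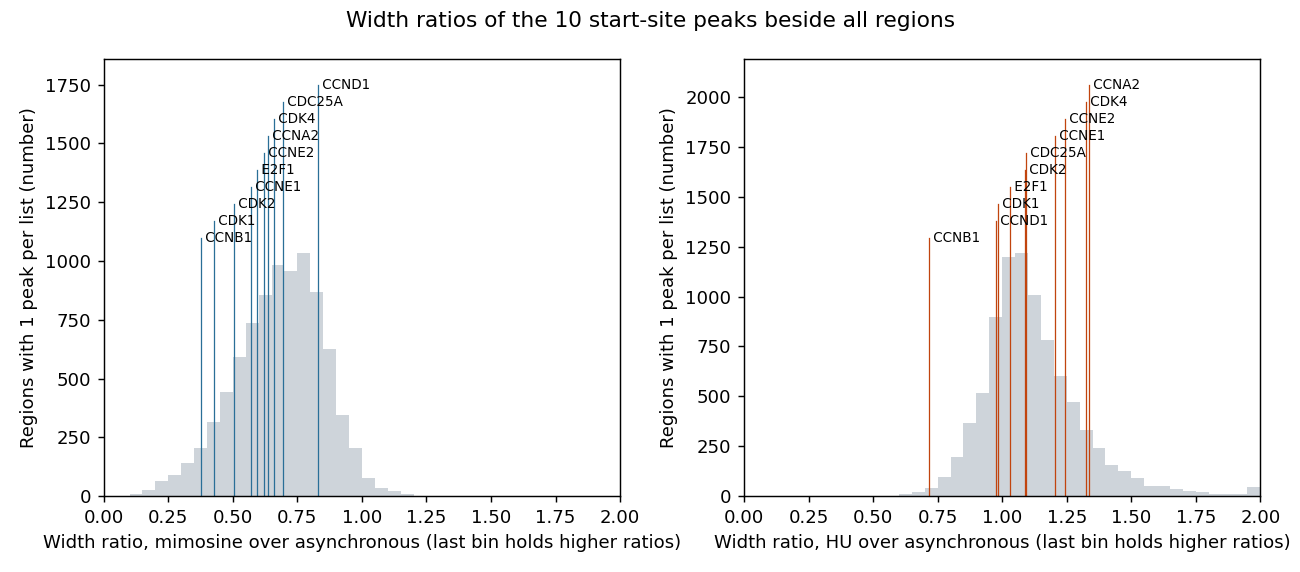
Width of the start-site peak in mimosine (left) and HU cells (right) divided by its width in asynchronous cells, as a vertical line per gene, over histograms of the same ratio in 8653 regions with 1 peak per list (gray, y axis in number of regions). CCNA2 and CDK1 are drawn although their regions hold more than 1 mimosine peak; CCNB1 has the lowest ratio in both panels, 0.376 and 0.717, and CCND1 the highest in the left one, 0.830.

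Against asynchronous cells the HU width ratio had the same median as the series, and the mimosine ratio a lower one. The mimosine to asynchronous width ratio had a median of 0.607 over the 10 genes (range 0.376 to 0.830), and the same 0.607 over the 8 with 1 peak per list, against 0.694 over all such regions (interquartile range 0.571 to 0.802). It lay below 0.694 at 9 of 10 genes, all but CCND1, and below the lower quartile of 0.571 at 4 of 10, CCNE1, CCNB1, CDK2 and CDK1. Among the 8 genes with 1 peak per list, as in the regions compared, the counts were 7 of 8 and 3 of 8. CDC25A (0.693) and CCNE1 (0.570) lay just under these limits. The HU to asynchronous ratio had a median of 1.09 over the 10 genes, equal to the 1.09 over all regions. HU peaks were wider than asynchronous peaks at 7 of 10 genes, against 75.1% of regions. The exceptions were CCND1 (0.976), CDK1 (0.984) and CCNB1 (0.717).

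Most of the genes ranked lower in the HU list than in the asynchronous list. The HU percentile was above the asynchronous one at 3 of 10 genes (CCNE1, CCNE2 and CDK2), against 56.9% of regions in all 3 lists. The median difference was -5.05 points over the 10 genes and 0.137 points over all regions, where the interquartile range was -4.27 to 6.04. Genes below that range were CCNB1 (-12.5), CCND1 (-11.9), E2F1 (-10.4), CDK4 (-5.90), CDC25A (-5.14) and CDK1 (-4.95). At CDK2 the difference was 0.0302 points. The HU percentile exceeded the mimosine one at 6 of 10 genes, against 74.9% of regions.

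Split regions and neighbouring regions were both seen at these genes. The start-site region held 2 or more mimosine peaks at 2 of 10 genes, CCNA2 and CDK1, against 11.9% of regions in all 3 lists. Another region stood within 5 kb of the start-site region at 5 of 10 genes, against 19.6% of all regions. These were CCNA2, CCNB1, CDK2, CDK4 and CDC25A. CCNB1 and CDC25A each had 1 such region, held by 1 list only, with scores of 57.6 in asynchronous cells and 51.7 in HU cells. CCNA2 had 4, of which 3 were held by 1 list and 1 by the HU and asynchronous lists, and none held a mimosine peak. CDK2 had 1 and CDK4 had 2, and these held peaks of all 3 lists.

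Broad peaks were represented by CCND1 and CCNE2. Peaks of 8 kb or more lay over 2 of 10 start sites in HU cells, 0 of 10 in mimosine cells and 2 of 10 in asynchronous cells. Such peaks made up 2.42%, 0.590% and 1.88% of the lists. In mimosine cells the CCND1 peak measured 7369 bp, at width percentile 99.2, and the CCNE2 peak 4981 bp, at width percentile 96.4.

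The peaks reached further into the gene than away from it. The promoter table gives the strand of 7 of the genes: CCNE1, CCNB1 and CDK1 on the forward strand, and CCNA2, CDK4, E2F1 and CDC25A on the reverse strand. At 7 of these 7 genes the start-site peak extended further downstream than upstream in HU cells, likewise in 7 of 7 in mimosine cells and in 7 of 7 in asynchronous cells. The median extent downstream was 2778 bp in HU cells, 1668 bp in mimosine cells and 2849 bp in asynchronous cells. Upstream it was 784, 205 and 705 bp. No hg19 start sites of other genes were used, so this asymmetry has no background here.

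CCND1, CCNE2 and CDK2 were not in the promoter table, and their sides are given by coordinate. CCND1 peaks reached 5110 bp in HU, 4624 bp in mimosine and 5175 bp in asynchronous cells towards lower coordinates, and 3545, 2744 and 3697 bp towards higher ones. CCND1 is transcribed towards higher coordinates, so its longer arm lay upstream, unlike at the 7 genes above. CDK2, transcribed in the same direction, reached 1800, 1033 and 1585 bp towards higher coordinates and 706, 131 and 719 bp towards lower ones. CCNE2 is transcribed towards lower coordinates, where its peaks reached 6526, 2665 and 5310 bp, against 3436, 2315 and 2708 bp on the other side.

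The upstream edge lay closest to the start in mimosine cells at all 7 genes. Among regions with exactly 1 peak per list, mimosine peaks were narrower than HU peaks at 99.9% and than asynchronous peaks at 98.2%. Upstream edges at other genes were not measured, so neither this nor the counts below set the 7 genes apart. At E2F1 the peak ended 532 bp upstream of the start in HU cells, 70 bp in mimosine cells and 705 bp in asynchronous cells. At CCNE1 the values were 1007, 86 and 1089 bp. At CDK4 they were 869, 142 and 353 bp. The 250 bases before the start lay wholly inside the peak at 7 of 7 genes in HU cells, 3 of 7 in mimosine cells and 7 of 7 in asynchronous cells. The 3 genes were CDK1, CCNA2 and CDC25A, with 332, 444 and 377 bp. This length was chosen after the values were seen. With 100 bases 5 of 7 mimosine peaks and with 500 bases 0 of 7 met it, and the start sites themselves are given in steps of 10 bases.

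The shorter upstream arm lost the larger share of its length, and the longer downstream arm more bases, at most of the 7 genes. Between mimosine and asynchronous cells, the share lost was larger upstream at 5 of 7 genes. In bases, the difference was larger downstream at 6 of 7 genes, for example 1632 against 1040 bp at CCNB1, while CCNE1 had 95 bp downstream and 1003 bp upstream. The mimosine to asynchronous ratio of the upstream extents had a median of 0.402 (range 0.0790 to 0.731) and that of the downstream extents 0.697 (0.397 to 0.935). The exceptions to the larger share upstream were CDK1, with 0.652 upstream and 0.397 downstream, and CCNA2, with 0.731 and 0.615. Both are the genes with split mimosine peaks, where only the peak over the start was measured. The mimosine to HU ratios had medians of 0.298 upstream and 0.602 downstream. In that comparison the larger share was lost upstream at 5 of 7 genes, and more bases downstream at 6 of 7. Arms at other genes were not measured, so the counts in both comparisons have no background here. By arithmetic, an equal loss of bases on both sides is a larger share of the shorter arm.

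Promoter sequences were available for the same 7 genes, from RefSeq on GRCh38.p14. Each runs from 250 bases before to 50 bases after the annotated start, on the strand of the gene. Positions in GRCh38 were not converted to hg19, so the sequences are not aligned to peak edges and their cover by peaks was not measured. By the hg19 start sites, mimosine peaks held all 250 bases before the start at only 3 of 7 genes. CDK1 has 2 annotated starts, and the one at the outer end of the gene was used. The GC content of the 7 promoters had a median of 65.3% (range 47.7 to 81%), against 58.7% over 35116 promoters of the same length. The lowest value belonged to CDK1 and the highest to CCNE1. Over all promoters the interquartile range was 47 to 68%.

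The following 6 promoters are shown because each held letters of a motif known from cell cycle gene transcription. Capitals mark every match, on either strand, to an E2F motif (TTTCCCGC, TTTGGCGC, TTTCGCGC or TTTGCCGC), the cell cycle homology region or CHR (TTTGAA or TTCGAA), the CCAAT box (CCAAT, or ATTGG on the other strand), the cAMP response element or CRE (TGACGTCA) and the E-box (CACGTG). The GC box (GGGCGG) was searched too but is not capitalized.
E2F1: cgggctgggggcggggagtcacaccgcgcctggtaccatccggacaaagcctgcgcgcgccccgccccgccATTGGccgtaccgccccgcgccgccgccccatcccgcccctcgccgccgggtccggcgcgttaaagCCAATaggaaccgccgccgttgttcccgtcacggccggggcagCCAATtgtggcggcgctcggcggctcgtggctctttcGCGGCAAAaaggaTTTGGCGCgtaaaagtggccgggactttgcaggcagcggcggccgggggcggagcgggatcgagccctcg
CDC25A: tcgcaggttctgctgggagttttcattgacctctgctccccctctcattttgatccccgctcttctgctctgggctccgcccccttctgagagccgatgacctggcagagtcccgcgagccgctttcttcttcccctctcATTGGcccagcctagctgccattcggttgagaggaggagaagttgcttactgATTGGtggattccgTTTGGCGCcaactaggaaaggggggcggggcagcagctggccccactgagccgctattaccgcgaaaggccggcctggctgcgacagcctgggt
CDK1: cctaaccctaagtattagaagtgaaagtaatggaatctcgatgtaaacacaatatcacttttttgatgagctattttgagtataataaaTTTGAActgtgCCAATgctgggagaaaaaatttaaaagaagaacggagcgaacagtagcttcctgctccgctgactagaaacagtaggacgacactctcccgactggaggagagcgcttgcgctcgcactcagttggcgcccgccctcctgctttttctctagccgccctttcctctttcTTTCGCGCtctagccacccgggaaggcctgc
CCNA2: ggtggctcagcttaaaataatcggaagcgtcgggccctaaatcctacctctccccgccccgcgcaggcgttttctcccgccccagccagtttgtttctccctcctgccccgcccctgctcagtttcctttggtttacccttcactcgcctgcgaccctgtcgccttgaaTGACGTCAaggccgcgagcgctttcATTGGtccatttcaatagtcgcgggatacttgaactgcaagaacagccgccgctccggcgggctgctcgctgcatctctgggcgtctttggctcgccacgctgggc
CCNB1: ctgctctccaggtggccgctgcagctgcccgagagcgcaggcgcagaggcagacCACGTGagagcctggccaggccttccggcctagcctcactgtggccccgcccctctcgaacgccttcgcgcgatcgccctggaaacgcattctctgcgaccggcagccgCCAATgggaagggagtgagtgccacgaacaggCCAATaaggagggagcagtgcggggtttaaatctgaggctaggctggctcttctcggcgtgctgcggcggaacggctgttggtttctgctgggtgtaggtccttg
CDK4: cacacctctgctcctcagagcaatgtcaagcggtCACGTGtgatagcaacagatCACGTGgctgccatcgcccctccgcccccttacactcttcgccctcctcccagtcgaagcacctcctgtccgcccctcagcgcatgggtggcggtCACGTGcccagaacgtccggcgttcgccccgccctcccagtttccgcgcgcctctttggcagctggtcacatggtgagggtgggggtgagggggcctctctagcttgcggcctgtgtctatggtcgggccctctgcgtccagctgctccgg

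E2F motif letters were found in 3 of the 7 promoters, those of E2F1, CDC25A and CDK1, against 3.31% of all promoters. E2F1 held 2 of them, starting 33 and 20 bases before its start, CDC25A held 1 at 44 bases before, and CDK1 held 1 at 19 bases after. The CCAAT box was found in 5 of 7 promoters, against 34.6% of all promoters. E2F1 had 3, CDC25A and CCNB1 had 2 each, and CCNA2 and CDK1 had 1 each. GC box letters were found in 7 of 7 promoters, against 45.0%, and CCNE1 held 7 of them and no match to the other motifs. The GC box word holds only G and C, and the share over all promoters was not matched for GC content.

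The remaining motifs were sparse. The CRE was found in CCNA2 alone, 81 bases before its start, against 1.85% of all promoters. E-boxes were found in 2 of 7 promoters, against 7.26% of all promoters, with 3 in CDK4 and 1 in CCNB1. CHR letters were found in 1 of 7, at CDK1, 161 bases before the outer start, against 16.4% of all promoters. At the inner CDK1 start the window held 3 CHR matches and 2 CCAAT boxes. Neither the ETS motif (CCGGAAGT, 4.14% of all promoters) nor the TATA box (TATAAA, 11.5%) had a match in the 7. Only the exact words given were searched, so other forms of a motif, the CHR among them, were not counted or capitalized. These matches describe letters in a window and say nothing of factor binding in RKO cells.

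Peaks near the 5 kb limit changed no count over a start site. The peaks just inside it were those of CCNB1 at 4979 bp and CDK2 at 4905 bp in asynchronous cells, and of CDC25A at 4835 bp and CDK4 at 4799 bp in HU cells. The peaks just outside it were those of CCNA2 at 5128 bp in asynchronous cells and 5258 bp in HU cells, and of CDK4 at 5576 bp in asynchronous cells. None of them covers a start site.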

How the data were processed

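ChIP-seq of BRPF3 in RKO cells gave 3 libraries, with 1 IgG library as control. The submitters' processing notes name MACS 1.4.0, Bowtie 0.12.8, bedtools and SAMtools without settings, and both hg18 and hg19; positions were read as hg19. A list of peaks was deposited by the authors for each BRPF3 library, and each deposited score is 10 times the negative base-10 logarithm of the caller's p-value, as read from the form of the values.

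Peaks overlapping by at least 1 bp were merged across lists. The peak over, or nearest to, each start site was described by width, score and percentile within its list (ties at mid-rank). Backgrounds are counts over all regions, peaks or 10 kb windows. Strand and promoters came from RefSeq (GRCh38.p14), and gene names of neighbours from its gene table. All 10 genes were named by rule. The members and lists were chosen with earlier results of these data known. Other pathway genes were not analysed here, since no hg19 start sites were given for them. No test was made, since each condition had 1 library. The software was NumPy 2.4.6, pandas 2.3.3, matplotlib 3.10.9 and SciPy 1.17.1 under Python 3.11.15. Merging and width counts were tested on simulated data made from 13160 asynchronous peaks, where 200 of 200 narrowed peaks were recovered. The narrowed list was set against its own unchanged copy, so this checks the code and not differences between libraries.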

Additional observations from a re-analysis of the deposited data

How the results depend on the processing

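Of 56 alternatives to 35 values, 51 left the value within 1.5 times for counts, or, for medians, within a 95% interval of the median taken from the ordered values of the genes. They covered windows of 2 and 10 kb, a score of 100 or more, scores above 3100 set to 3100, the highest-scoring peak and outermost edges within 5 kb, base pairs covered within 5 kb, and promoters of 150 bases. Many could not move a value. Every start site lay inside a peak scoring 204 or more, so the windows and the score limit had to return 10 of 10. Setting scores to 3100 alters only the top ranks, not these medians. The interval is also wide for so few genes, which were chosen by name and are not replicates of a condition. Median extents of 205 and 332 bp (mimosine, upstream) counted as unchanged, as did 2778 and 3689 bp (HU, downstream). The 250 base measure, the limits of 2 times and 20 points, and their alternatives were chosen after seeing the data. Mimosine peaks covering 250 bases upstream numbered 3, but 5 with 100 bases and 0 with 500. By base pairs covered, 2 rather than 4 genes had an HU value at least 2 times the mimosine one; the window ends at 5 kb and counts all peaks in it, so CCNE2 is cut and split or neighbouring peaks are added. In the 150 bases nearest the start, 0 promoters held CHR and 0 held E-box letters, with CDK1 counted at its outer start. At the inner CDK1 start, which was not counted, CHR matches lay 69 and 13 bases before and 9 bases after it. A shorter window also leaves room for fewer sites. No peak wider than 10 kb lay over a start site, so leaving such peaks out changed nothing. No paired analysis was possible because each condition had 1 library. Read depth is unknown and limits what a narrow or absent peak means.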
